A study of Homo sapiens with 4 samples.

Results

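Autophagy genes encode the proteins with which a cell wraps its own cytoplasm, mitochondria or protein aggregates in a double membrane, the autophagosome, and delivers them to the lysosome. The gene list examined here holds 42 such genes, divided by textbook function into 6 initiation genes, 12 genes of nucleation and membrane supply, 16 conjugation genes, 5 receptor genes and 3 lysosomal regulators. They were compared with the 22148 genes of the authors' background, the set against which Gene Ontology (GO) terms were tested. A gene was counted as listed when its Ensembl identifier stood under at least 1 GO term of the comparison, which means that the authors had called it differentially expressed.

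Both cell lines, HepG2 and Huh7, are established lines of human liver cancer and are labelled hepatocellular carcinoma. The series held HepG2 cells without a treatment label (group A) and after sonodynamic therapy (SDT, group B), and Huh7 cells without a treatment label (group C) and after SDT (group D). SDT uses ultrasound to activate a sensitizer inside cells. Here targeted nanobubbles carried the drug lonidamine (LND), which acts on cancer cell metabolism, together with the sensitizer hematoporphyrin monomethyl ether (HMME). The comparison of B with A asked which genes differed after SDT in HepG2, and that of D with C asked the same in Huh7. With 1 library in each of the 4 groups, no value had a replicate error and no comparison between the cell lines was tested. The tables hold no expression level and no direction of change, so that "listed" below never means higher or lower, and neither cell line could be checked against its markers. The time between treatment and RNA isolation is not given in the sources used here. In bulk RNA a change in the mix of cells and a change of RNA per cell cannot be told apart.

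Autophagy starts when the ULK1 kinase complex, held in check by the nutrient sensor mTORC1, is released and a lipid kinase complex built on PIK3C3 marks the site at which a membrane forms. ATG9 vesicles, the lipid transporter ATG2 and WIPI proteins enlarge this membrane, and ubiquitin-like conjugation attaches the ATG8 proteins (LC3 and GABARAP proteins) to it. Receptors such as SQSTM1 (p62) tie cargo to ATG8, and the transcription factor TFEB drives genes of autophagy and lysosomes. In liver the process is known for turnover of mitochondria, lipid droplets and p62 aggregates.

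In HepG2 cells, 16 of the 42 autophagy genes were listed (38.1%), where 21.6% of all background genes were. In Huh7 cells, 9 of 42 were listed (21.4%), where 19.7% of all background genes were, so that the Huh7 share lay near the background. The same 8 genes were listed in both cell lines (19.0%, against 10.3% of all background genes), namely ULK1, ATG101, ATG2A, ATG9B, WIPI1, GABARAPL1, GABARAPL2 and SQSTM1. A further 8 genes were listed in HepG2 alone, that is ATG13, RB1CC1, ATG14, ATG4D, MAP1LC3A, MAP1LC3B, OPTN and TAX1BP1. TFEB was the single gene listed in Huh7 alone, and 25 genes were listed in neither cell line. The shared genes made up 8 of the 16 autophagy genes listed in HepG2 and 88.9% of those listed in Huh7. Over all listed genes, the 2281 shared genes were 47.7% of the HepG2 list and 52.2% of the Huh7 list. A gene absent from a list stood under no GO term of that comparison, and the tables do not show whether it was expressed, tested or called without an annotation.

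**Figure D1:**
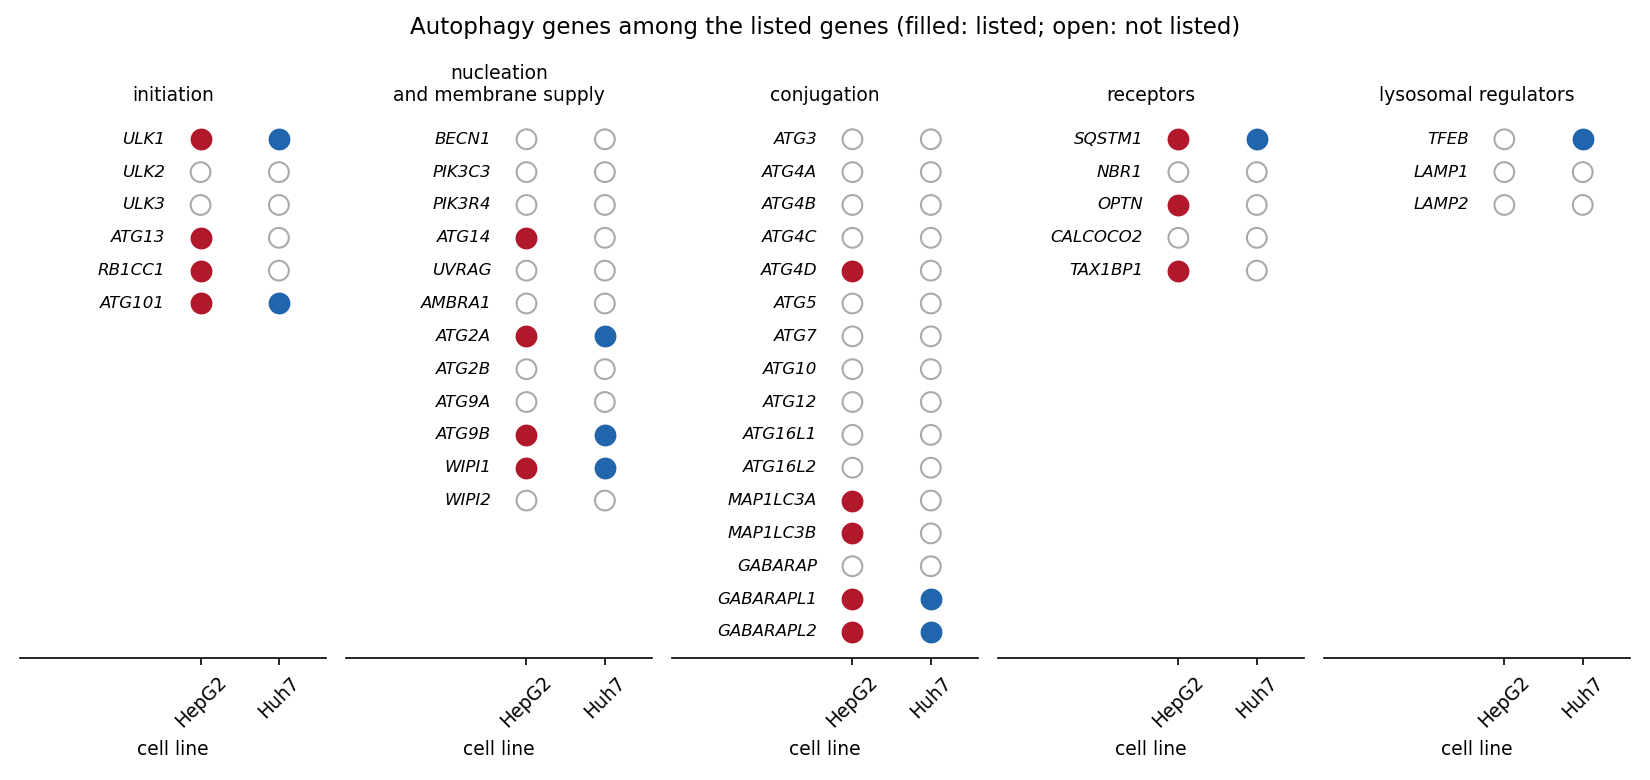
Each of the 42 autophagy genes by role, with a filled circle where the gene was listed as differentially expressed after SDT (HepG2 in red, Huh7 in blue) and an open circle where it was not. The 8 genes with both circles filled lie in initiation, membrane supply, conjugation and receptors, and TFEB is the single gene filled for Huh7 alone.

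Among the initiation genes, 4 of 6 were listed in HepG2 (66.7%) and 2 of 6 in Huh7 (33.3%). Over all background genes the shares were 21.6% and 19.7%. The 4 HepG2 genes were the whole ULK1 complex, that is the kinase ULK1, its regulatory subunit ATG13, the scaffold RB1CC1 (FIP200) and ATG101, the partner that stabilises ATG13. The Huh7 comparison listed the kinase ULK1 and ATG101 only. The related kinases ULK2 and ULK3 were listed in neither cell line. These complexes and families were set apart after the listing had been seen, and their counts are a description. ULK1 lies at chr12:131894651-131923167 on the plus strand (GRCh38) and ATG101 on the same chromosome and strand at chr12:52069246-52077494.

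Of the 12 genes of nucleation and membrane supply, 4 were listed in HepG2 (33.3%) and 3 in Huh7 (25.0%). The background shares were 21.6% and 19.7%. Those listed in both cell lines were ATG9B, ATG2A and WIPI1, each with a relative among the 42 genes that was listed in neither. ATG9B, which encodes a multispanning protein of the vesicles that seed the membrane, was listed and ATG9A was not. ATG2A, a lipid transporter, was listed and ATG2B was not. WIPI1, which reads the lipid made by PIK3C3, was listed and WIPI2 was not, while of the WIPI relatives outside the 42 genes WDR45 was listed in both cell lines and WDR45B in neither. ATG9B lies at chr7:151012209-151024499, ATG2A at chr11:64894546-64917248 and WIPI1 at chr17:68420948-68457513, all on the minus strand. Of 4 genes here that encode subunits of the autophagy-specific PIK3C3 complex, the HepG2 comparison listed ATG14, the subunit that directs it to autophagy, and the Huh7 comparison listed none. NRBF2, a further subunit outside the 42 genes, was also listed in HepG2 only. The catalytic subunit PIK3C3, its partner PIK3R4 and BECN1 (Beclin 1) were listed in neither cell line. The same held for UVRAG, the subunit that takes the place of ATG14 in the endosomal form of the complex, and for AMBRA1, a regulator of BECN1 and ULK1.

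The 16 conjugation genes gave 5 listed genes in HepG2 (31.2%) and 2 in Huh7 (12.5%). The background shares were 21.6% and 19.7%, so that the Huh7 share lay below its background. The listed genes were ATG8 proteins and 1 protease, and none of the 7 conjugation enzymes and partners was listed in either cell line. These 7 are the activating enzyme ATG7, the transfer enzymes ATG3 and ATG10, the ubiquitin-like ATG12 with its target ATG5, the membrane anchor ATG16L1 and its relative ATG16L2. Of 5 ATG8 genes, the HepG2 comparison listed 4 (MAP1LC3A, MAP1LC3B, GABARAPL1 and GABARAPL2), and the Huh7 comparison listed GABARAPL1 and GABARAPL2. GABARAP was listed in neither. Of the 4 ATG4 proteases, which trim ATG8 proteins before conjugation and release them afterwards, the HepG2 comparison listed ATG4D alone, and ATG4A, ATG4B and ATG4C were listed in neither cell line. GABARAPL1 lies at chr12:10212458-10223130 and GABARAPL2 at chr16:75566351-75577881, both on the plus strand.

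The HepG2 comparison listed 3 of the 5 receptor genes, and the Huh7 comparison listed 1. SQSTM1, at chr5:179806398-179838078 on the plus strand, was the gene listed in both, and its product collects ubiquitinated proteins and also binds KEAP1, the sensor of oxidative stress. OPTN (optineurin) and TAX1BP1, which bind ubiquitinated cargo such as damaged mitochondria and bacteria, were listed in HepG2 only. NBR1 and CALCOCO2 (NDP52) were listed in neither. Of the 3 lysosomal regulators, TFEB alone was listed in Huh7 (33.3%) and none in HepG2. The lysosomal membrane proteins LAMP1 and LAMP2 were listed in neither cell line.

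**Figure D2:**
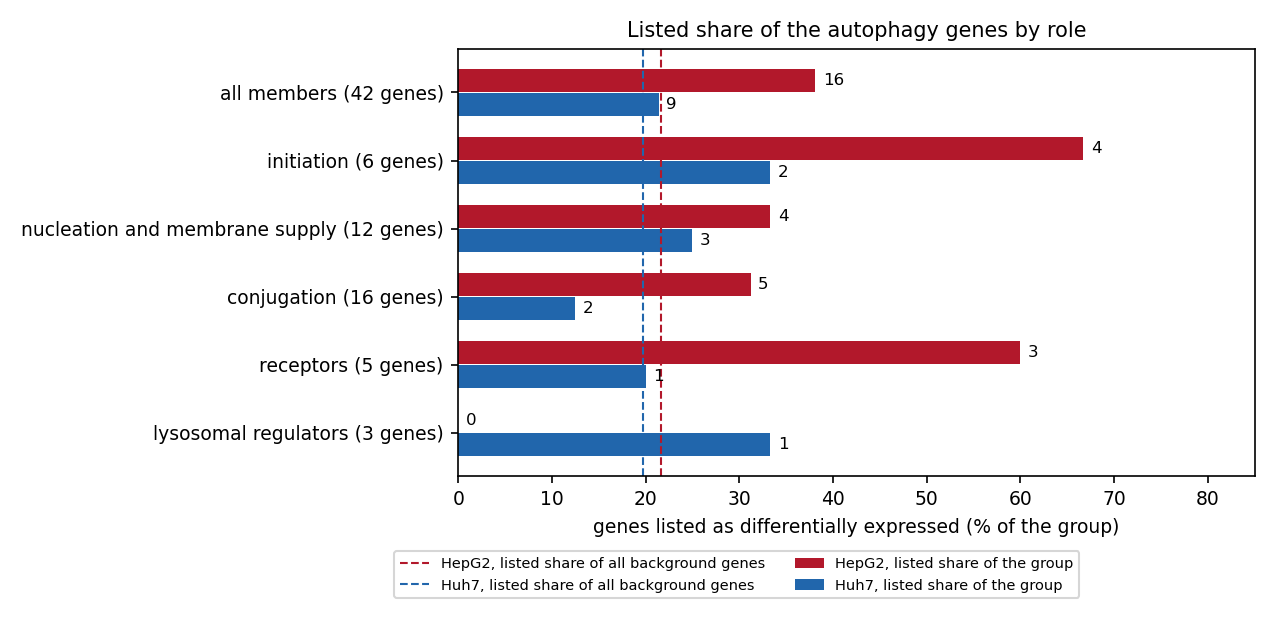
Share of the autophagy genes of each role that was listed as differentially expressed, in percent, for HepG2 (red bars) and Huh7 (blue bars), with the number of listed genes at each bar and the share over all 22148 background genes as dashed lines (21.6% and 19.7%). The HepG2 bar is longer than the Huh7 bar in each role but the lysosomal regulators, where it is 0, and the roles hold only 3 to 16 genes.

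The GO terms showed where the listed autophagy genes were annotated. Of 59 terms naming autophagy, mitochondrion degradation or lysosomes, 13 held at least 3 of the listed autophagy genes and at least 5 background genes. Among these, the widest term, autophagy, had 108 of 450 genes listed in HepG2 (24.0%) and 84 in Huh7 (18.7%), both within a few percentage points of the background. Macroautophagy lay at 63 (24.9%) and 50 (19.8%) of 253 genes. The terms regulation of autophagy, with 66 (24.9%) and 54 (20.4%) of 265 genes, and regulation of macroautophagy, with 35 (25.5%) and 31 (22.6%) of 137 genes, were also close to it.

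In HepG2, terms for the forming autophagosome had larger shares, which in Huh7 held for some of them only. Autophagic vacuole assembly, which GO uses for the building of the autophagosome, had 28 of 78 genes listed in HepG2 (35.9%) and 19 in Huh7 (24.4%). Of these, 12 and 7 were autophagy genes of the list, and 17 were listed in both cell lines. The pre-autophagosomal structure, the site at which the membrane starts, had 12 (36.4%) and 9 (27.3%) of 33 genes listed, and its membrane 6 (35.3%) and 5 (29.4%) of 17. Autophagy genes of the list made up 9 and 6 of those of the structure, and 5 and 3 of those of its membrane. For the term protein localization to this structure the counts were 4 (30.8%) and 3 (23.1%) of 13, of which 3 and 2 were autophagy genes of the list. Autophagic vacuole had 30 (31.9%) and 21 (22.3%) of 94 genes listed, with 10 and 6 from the list. The cell lines lay further apart in the membrane and maturation terms. Autophagic vacuole membrane had 12 of 32 genes listed in HepG2 (37.5%) and 6 in Huh7 (18.8%), with 7 and 4 from the list. Autophagic vacuole maturation had 9 (25.0%) and 4 (11.1%) of 36, with 4 and 2 from the list.

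Mitochondrion degradation had 16 of 42 genes listed in HepG2 (38.1%) and 12 in Huh7 (28.6%), of which 11 and 6 were autophagy genes of the list. The smaller term macromitophagy had 4 of 11 genes listed in HepG2 (36.4%), with ATG13, ATG14 and SQSTM1 among them, and 1 in Huh7 (9.09%), which was SQSTM1. The HepG2 share lay above the HepG2 background in 13 of the 13 terms, and the Huh7 share above the Huh7 background in 9 of 13. The HepG2 share exceeded the Huh7 share in 13 of 13. The 13 terms share genes and contain the listed autophagy genes by construction of the rule, so that their counts are not separate pieces of evidence. Of the 17 autophagy genes through which a term could enter, 16 were listed in HepG2, so that the rule favoured high HepG2 shares. Terms that the rule left out went both ways. Lysosomal lumen lay at 19.1% in HepG2 and 23.6% in Huh7, and lysosome at 22.1% and 19.4%. The difference between the cell lines was not tested.

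**Figure D3:**
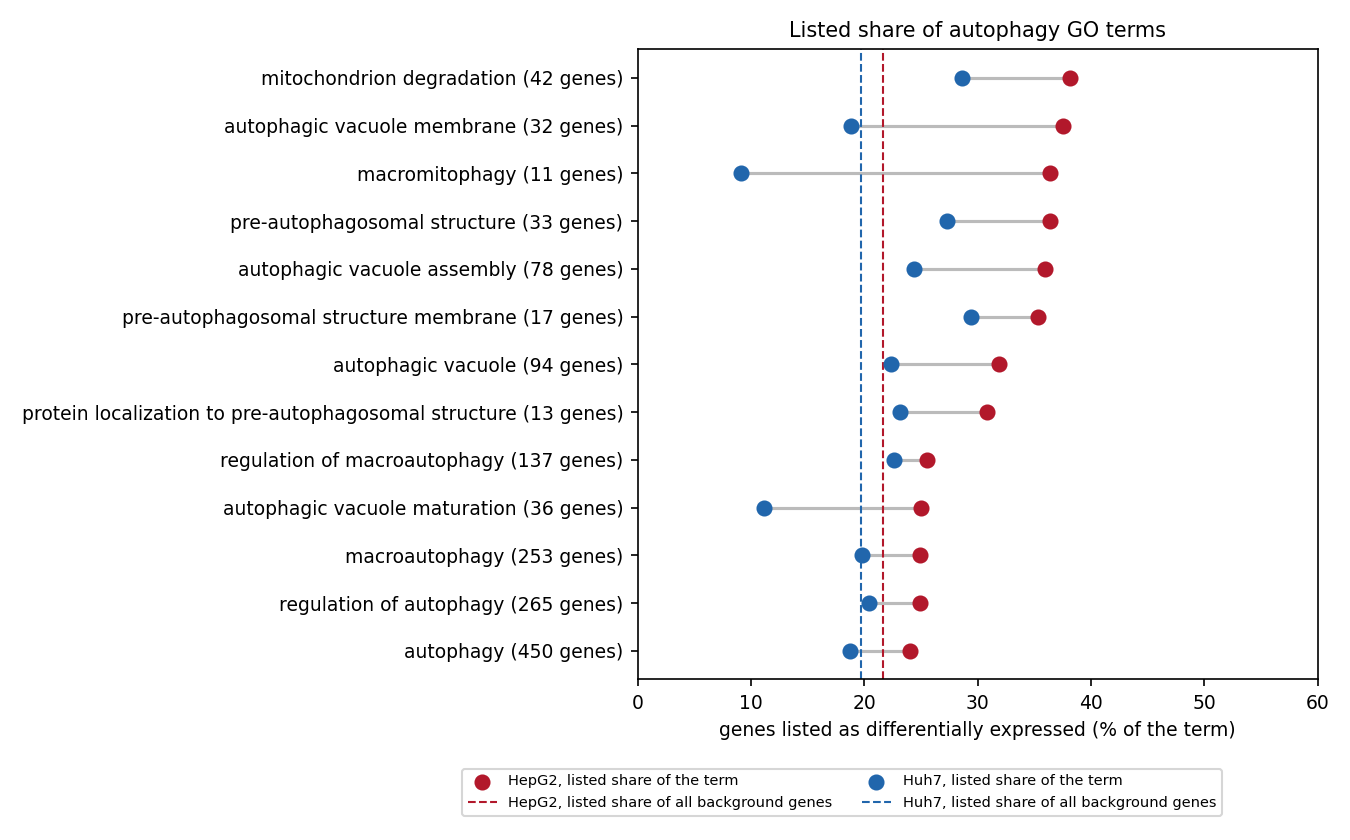
Share of the genes of each of the 13 GO terms that was listed as differentially expressed, in percent of the term's background genes, for HepG2 (red points) and Huh7 (blue points), with the share over all background genes as dashed lines. Red points lie to the right of blue points in each term, from 24.0% for autophagy to 38.1% for mitochondrion degradation in HepG2. Terms were chosen by the autophagy genes listed in either cell line, most of them listed in HepG2, which favoured this order.

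Another 10 genes, from outside the list, stood under autophagic vacuole assembly in both cell lines. Those named here were picked after the values had been seen, and were WDR45 and MAP1LC3B2, relatives of the WIPI proteins and of MAP1LC3B, TP53INP2, which carries ATG8 from the nucleus to the cytoplasm, and C9orf72, which forms a complex with SMCR8. Under mitochondrion degradation, SPATA18, a p53-induced gene, was listed in both cell lines, whereas the kinase PINK1 and the mitophagy receptor FUNDC1 were listed in Huh7 alone.

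KEGG pathways gave a different count. Regulation of autophagy had 6 of 39 genes listed in HepG2 (15.4%) and 3 in Huh7 (7.69%), and each of these was an autophagy gene of the list. They were ATG13, ATG14, ATG4D, GABARAPL1, GABARAPL2 and ULK1 in HepG2, and GABARAPL1, GABARAPL2 and ULK1 in Huh7. Summed over all pathways, with a gene counted once in each of its pathways, 26.3% of the genes were listed in HepG2 and 25.8% in Huh7, so that this pathway lay below the KEGG average in both. The mTOR signaling pathway had 18 (30.0%) and 16 (26.7%) of 60 genes listed, 9 of them in both cell lines. Among these listed genes, ULK1 was the only autophagy gene of the list. Lysosome had 29 (23.8%) and 32 (26.2%) of 122 genes listed, 22 of them in both, and no autophagy gene of the list was among them. GABARAPL1 and GABARAPL2 also stood under FoxO signaling pathway and GABAergic synapse, and SQSTM1 stood under Osteoclast differentiation alone.

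The machinery around the autophagy genes was described by 154 further genes in 9 lists. Of these, 49 were listed in HepG2 (31.8%, against 21.6% of all background genes), 41 in Huh7 (26.6%, against 19.7%) and 30 in both (19.5%, against 10.3%). The shared genes were 61.2% of the HepG2 genes and 73.2% of the Huh7 genes, where over all listed genes they were 47.7% and 52.2%.

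Upstream of ULK1, 10 of 25 genes of mTORC1 and Rag sensing were listed in HepG2 and 8 in Huh7 (32.0%), with 6 in both. The shared genes were AKT1S1, an inhibitory subunit of mTORC1, TSC1, which restrains its activator RHEB, RRAGC and FLCN of the amino acid branch, and the stress-induced inhibitors SESN2 and DDIT4. In the list of further ATG8, ATG18 and membrane proteins, 4 of 10 genes were listed in HepG2 and 3 in Huh7. WDR45 and MAP1LC3B2 were shared. VMP1, an ER protein needed for the growing membrane, and NRBF2 were listed in HepG2 only, and RUBCN (Rubicon) in Huh7 only. Of 8 autophagy modulators, the HepG2 comparison listed 4 and the Huh7 comparison 3. TP53INP2 and the stress-induced pseudokinase TRIB3 were shared, TP53INP1 and HMGB1 were listed in HepG2 alone, and DAPK1 in Huh7 alone.

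For selective receptors of mitochondria, ER and other cargo the order of the cell lines was the opposite, with 3 of 18 genes listed in HepG2 (16.7%) and 5 in Huh7 (27.8%). The shared genes were BNIP3L (NIX), a receptor for mitochondria, and RETREG1 (FAM134B), a receptor for ER. The ubiquitin adaptor TOLLIP was listed in HepG2 only, and PINK1, FUNDC1 and the glycogen-binding STBD1 in Huh7 only. Of 15 genes of autophagosome-lysosome fusion, the HepG2 comparison listed 4 (26.7%) and the Huh7 comparison 2 (13.3%). The SNARE protein YKT6 and the adaptor PLEKHM1 were shared, and EPG5, a tether, and RILP, a partner of RAB7, were listed in HepG2 only.

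Among relatives of TFEB, TFE3 and TFEC were listed in both cell lines and MITF in HepG2 only, whereas TFEB was listed in Huh7 only. The V-ATPase, the proton pump of the lysosome, had 10 of 24 subunit genes listed in HepG2 (41.7%) and 6 in Huh7 (25.0%). All 6 of the Huh7 genes were shared, namely ATP6V0C, ATP6V0D1, ATP6V0D2, ATP6V0E2, ATP6V1B1 and ATP6AP2, and the HepG2 comparison added ATP6V0A4, ATP6V1B2, ATP6V1E1 and ATP6V1F. Lysosomal proteases and hydrolases were listed in 8 of 35 cases in HepG2 (22.9%) and 10 of 35 in Huh7 (28.6%). The 7 shared genes were the cathepsins CTSA, CTSC, CTSD, CTSH, CTSK and CTSS and the sialidase NEU1. PPT1 was listed in HepG2 only, and CTSL, GLA and SGSH in Huh7 only. Lysosomal membrane proteins had 3 of 15 genes listed in HepG2 and 2 in Huh7, with LAMP3 shared, MCOLN2 among those in HepG2 only and NPC1, a cholesterol transporter, in Huh7 only.

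**Figure D4:**
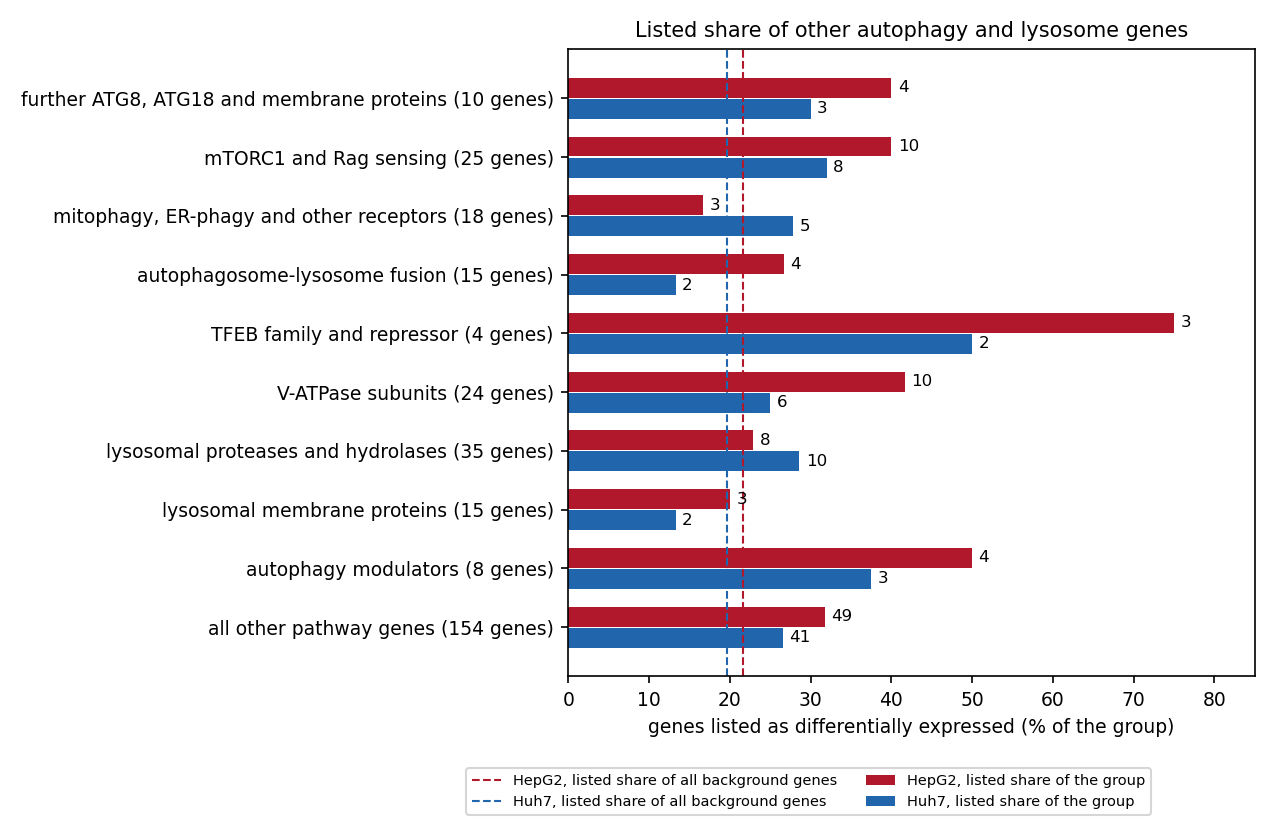
Share of the genes of 9 lists around the autophagy genes, and of all 154 genes, that was listed as differentially expressed, in percent, for HepG2 (red bars) and Huh7 (blue bars), with the number of listed genes at each bar and the share over all background genes as dashed lines. HepG2 bars are the longer ones except for the selective receptors (3 against 5 genes) and the lysosomal proteases and hydrolases (8 against 10 genes).

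The start regions of the autophagy genes were compared for 4 short motifs, each searched on both strands in the RefSeq windows of GRCh38.p14 from 250 bases before to 50 bases after a start. Windows were at hand for 37 of the 42 genes, some with several starts, and for 15843 protein-coding genes. The E-box CACGTG, the core of the element read by TFEB, was in 4 of 37 genes (10.8%) and in 10.9% of all genes. Its longer form TCACGTGA, which contains it, was in 2 (5.41%) and 1.65%. The antioxidant core TGACNNNGC, part of the element read by NRF2 in oxidative stress, was in 6 (16.2%) and 17.9%. The stress element TGATGNAA, bound by ATF4 dimers, was in 0 of 37 and in 3.6%.

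The E-box windows are shown because they set a listed gene beside an unlisted one, with CACGTG in capitals. The window of ATG14, listed in HepG2, is chr14:55411781-55412080 on the minus strand and holds 1 match, whose first base lies 21 bases upstream of the start. The window of LAMP1, listed in neither cell line, is chr13:113296989-113297288 on the plus strand and holds 6 matches, 2 of them within the longer form. The other genes with an E-box, ATG3 and ULK3, were also listed in neither.
ATG14: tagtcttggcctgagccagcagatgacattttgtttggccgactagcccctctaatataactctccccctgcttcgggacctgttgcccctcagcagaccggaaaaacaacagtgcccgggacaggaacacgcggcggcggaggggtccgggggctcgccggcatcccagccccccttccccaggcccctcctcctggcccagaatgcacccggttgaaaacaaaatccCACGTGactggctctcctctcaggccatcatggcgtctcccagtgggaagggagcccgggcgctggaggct
LAMP1: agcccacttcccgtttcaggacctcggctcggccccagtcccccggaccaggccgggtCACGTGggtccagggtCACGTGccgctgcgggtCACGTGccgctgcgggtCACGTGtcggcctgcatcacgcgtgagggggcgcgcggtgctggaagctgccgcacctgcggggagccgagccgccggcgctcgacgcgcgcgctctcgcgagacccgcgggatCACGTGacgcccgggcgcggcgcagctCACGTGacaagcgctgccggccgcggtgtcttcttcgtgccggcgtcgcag

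The antioxidant core was found in 3 of the 13 HepG2-listed genes with a window (ATG101, ATG9B and MAP1LC3B) and in 3 of the 23 genes listed in neither cell line (CALCOCO2, LAMP1 and ULK3). In LAMP1 it overlaps an E-box. The windows of ATG101, listed in both cell lines, and MAP1LC3B, listed in HepG2, are shown with this core in capitals. They lie at chr12:52069728-52070027 and chr16:87392086-87392385, both on the plus strand, and the first base of the match is 120 and 46 bases upstream of the start. A match describes the letters of the window and was not set against binding data.
ATG101: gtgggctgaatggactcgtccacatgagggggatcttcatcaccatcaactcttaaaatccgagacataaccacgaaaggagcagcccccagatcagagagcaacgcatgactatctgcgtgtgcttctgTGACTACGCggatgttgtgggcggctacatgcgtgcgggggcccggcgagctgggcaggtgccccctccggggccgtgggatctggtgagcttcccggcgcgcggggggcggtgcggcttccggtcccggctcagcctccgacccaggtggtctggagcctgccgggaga
MAP1LC3B: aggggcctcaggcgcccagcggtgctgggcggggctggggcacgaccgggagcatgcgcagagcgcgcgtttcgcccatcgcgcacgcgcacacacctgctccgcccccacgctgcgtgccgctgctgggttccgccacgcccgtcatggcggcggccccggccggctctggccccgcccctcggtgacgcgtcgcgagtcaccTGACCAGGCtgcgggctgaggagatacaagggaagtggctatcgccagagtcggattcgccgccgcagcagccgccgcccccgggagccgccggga

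Listed autophagy genes had shorter transcripts than unlisted ones. The median length of the longest transcript was 3367.5 bases for the 16 genes listed in HepG2 and 4165.5 bases for the other 26. For Huh7 cells the medians were 2986 bases for the 9 listed genes and 4123 bases for the other 33. Over all protein-coding genes the listed genes had the longer median, 3332 against 3105 bases in HepG2 and 3269.5 against 3120.5 bases in Huh7. The ranges of listed and unlisted autophagy genes overlapped widely, from 1439 to 6635 bases and from 1634 to 13684 bases in HepG2.

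By transcript sequence read in its own direction, most of the autophagy genes could be told apart from other genes. Overlap with genes on the opposite strand was not examined, and the strand setting of counting is unknown. In 40 of the 42 genes at least 90% of the stretches of 75 bases in the transcripts occurred in no other gene. The exceptions, ATG9A (68.6%) and GABARAP (74.1%), were both unlisted and shared stretches with the annotated genes AC068946.2 and AC120057.2, so that their place among the unlisted genes is uncertain. MAP1LC3B and MAP1LC3B2 shared 233 stretches, 4.18% of those of MAP1LC3B and 13.4% of those of MAP1LC3B2, and the listing of the latter is less certain for it.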

How the data were processed

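Ribosomal RNA was removed from total RNA and stranded libraries were sequenced, 1 for each of the 4 groups. Per the submitters' processing notes, the tools were HISAT2, Bowtie2 2.2.8, StringTie 1.3.1 and Cuffdiff 2.1.1. The genome build of the files is not given in the sources used here, nor is the strand setting of counting. The paper's methods name Cuffdiff for calls at an adjusted p-value under 0.05, whereas its results name edgeR. The authors deposited 2 GO tables and 2 KEGG tables of the called mRNAs, with gene identifiers, counts of genes per term and p-values. The p-values are the authors' own comparisons and were not used. The depth of each library is unknown from these tables.

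The listed genes were rebuilt as the union of identifiers over all GO terms of a comparison (Python 3.11.15, pandas 2.3.3) and set beside the share of the 22148 background genes listed. The scripts were tested on simulated data. Symbols were matched by identifier for 42 of 42 autophagy genes and 154 of 155 further genes. Gene positions and transcripts came from GENCODE release 29 (GRCh38), by identifier only, and start regions from RefSeq. No test was made, because the tables hold no values of single samples and each group had 1 library. The autophagy genes, lists and rules were chosen with earlier results of these data known. All autophagy genes were named, as were further genes listed in both cell lines, those of a single cell line where a list had at most 5 of them, and GO terms with at least 5 background genes and 3 autophagy genes. Alternatives were other tables, other GO rows and another background. Protein lengths, protein identities and exon counts were not analysed here. Some results for single genes are not reported here.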

Additional observations from a re-analysis of the deposited data

How the results depend on the processing

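Taking genes from the GO or the KEGG tables together, from biological process terms alone or from cellular component terms alone left each count of listed autophagy genes, overall and by role, within 1.5 times its value. With only the terms that name autophagy, the HepG2 comparison listed 15 autophagy genes instead of 16, without TAX1BP1, and the further genes of the pathway fell to 28 in HepG2 and 25 in Huh7, because fewer terms were read. The KEGG tables alone, which hold fewer genes, gave 7 autophagy genes in HepG2, 4 in Huh7 and 4 in both. By role, they gave 2 initiation genes, 1 nucleation gene, 3 conjugation genes and 1 receptor gene in HepG2. In Huh7 they gave 1 initiation gene, 2 conjugation genes and 1 receptor gene, with 0 nucleation genes and 0 lysosomal regulators. With protein-coding genes as the background, the listed share of all genes was 23.9% in HepG2 and 21.9% in Huh7, the latter slightly above the 21.4% of autophagy genes listed in Huh7. No paired analysis was possible because the tables hold no values of single samples. Without replicates, depth or direction of change, a gene absent from 1 list cannot be called different between the cell lines.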

Other observations

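Terms outside autophagy that held at least 4 of the listed autophagy genes included cellular response to nitrogen starvation, with 5 of 12 genes listed in HepG2 (41.7%) and 3 in Huh7 (25.0%). In HepG2 these were GABARAPL1, GABARAPL2, MAP1LC3A, MAP1LC3B and MAP1LC3B2, and in Huh7 GABARAPL1, GABARAPL2 and MAP1LC3B2, so that the term consisted of ATG8 genes alone in both lists. Regulation of response to nutrient levels had 44 of 160 genes listed in HepG2 (27.5%) and 36 in Huh7 (22.5%), with 26 in both. Its autophagy genes were the 4 subunits of the ULK1 complex in HepG2 and ULK1 and ATG101 in Huh7. The other genes shared there included HMOX1, the heme-degrading enzyme of the oxidative stress response, and ERN1, a sensor of ER stress, which were named after the values had been seen. Vacuole organization had 40 (25.6%) and 28 (17.9%) of 156 genes listed, of which 12 and 8 were autophagy genes. Extrinsic to membrane had the opposite order, with 65 (25.0%) and 68 (26.2%) of 260 genes listed, of which 4 and 2 were autophagy genes.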
